A study of Mus musculus with 18 samples.

Results

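The immediate early genes described here were a list of 10 genes of 53458 in the count tables, taken by name: the AP-1 subunits Fos, Fosb, Jun, Junb and Jund, the transcription factors Egr1 and Nr4a1, the nuclear protein Ier2, the RNA-binding protein Zfp36 and the phosphatase Dusp1. The rule itself names the genes and uses no measured value, though the list was drawn up with earlier results of these data known. All 10 passed the filter on low counts. The study measured RNA, amplified from few cells using the Ovation RNA-Seq System V2 of NuGEN, in 3 populations sorted from bone marrow of C57BL/6 mice. HSC were the CD150+ CD48- cells of the Lin- Sca-1+ c-kit+ fraction. PreMegE and preCFU-E were both CD150+ cells lacking CD41 and FcgRII/III within the Lin- Sca-1- c-kit+ fraction, and were told apart by CD105, which preMegE lacked and preCFU-E carried. Each population came as Ptbp1 fl/fl cells, which carried the floxed alleles and are called WT below, and as Ptbp1 -/- cells, called KO. There were 3 libraries in each of the 6 groups, 18 in all, and the labels describe them as biological replicates. The sources used here do not give the Cre driver, the age or sex of the mice, or any pooling of animals.

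Immediate early genes are transcribed within minutes of a stimulus from factors that are already present in the cell, and their mRNAs are short-lived. Growth factors, cytokines and stress all induce them, and tissue dissociation and cell sorting are known to do so as well, so that their level in sorted cells can reflect handling as well as the state of the cell in the animal. In blood-forming cells, Egr1, Nr4a1 and the AP-1 factors have been linked to quiescence, while Zfp36 and Dusp1 act to switch the response off, by mRNA decay and by dephosphorylation of MAP kinases. The question here was how much these genes moved with genotype, with population and from library to library.

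The promoters of 8 of the 10 genes (all but Egr1 and Ier2) were matched in the RefSeq table of GRCm38.p6, with the 250 bases before each start searched on both strands. Sequences are shown for 4 genes that passed the test between populations and whose window overlaps an annotated exon of the same gene at most at its end, 5′ to 3′ on the gene's strand, with some of the searched motifs in capitals.
Fos, chr12:85473640-85473889, plus strand: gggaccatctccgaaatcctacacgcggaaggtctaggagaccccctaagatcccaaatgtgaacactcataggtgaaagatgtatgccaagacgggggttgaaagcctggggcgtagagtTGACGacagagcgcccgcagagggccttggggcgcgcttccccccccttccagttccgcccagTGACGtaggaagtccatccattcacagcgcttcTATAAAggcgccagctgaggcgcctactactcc
Jun, chr4:95052223-95052472, minus strand: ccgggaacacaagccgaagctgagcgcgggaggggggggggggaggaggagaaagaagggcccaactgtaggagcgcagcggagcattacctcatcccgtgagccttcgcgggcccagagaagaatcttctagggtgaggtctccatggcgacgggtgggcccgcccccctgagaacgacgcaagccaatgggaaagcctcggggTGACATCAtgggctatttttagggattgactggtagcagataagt
Dusp1, chr17:26508520-26508722, minus strand: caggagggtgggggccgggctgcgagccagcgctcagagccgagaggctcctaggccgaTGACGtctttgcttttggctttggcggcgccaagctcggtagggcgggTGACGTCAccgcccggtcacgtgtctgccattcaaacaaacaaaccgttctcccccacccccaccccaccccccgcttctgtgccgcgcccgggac
Nr4a1, chr15:101266596-101266845, plus strand: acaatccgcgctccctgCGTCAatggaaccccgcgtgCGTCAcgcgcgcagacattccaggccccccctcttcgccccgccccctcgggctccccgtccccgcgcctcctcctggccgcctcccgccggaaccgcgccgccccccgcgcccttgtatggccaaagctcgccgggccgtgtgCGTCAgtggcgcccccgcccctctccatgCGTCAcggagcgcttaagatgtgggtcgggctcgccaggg
The capitals mark TGACG, the letters shared by cyclic AMP response elements (CGTCA on the other strand), in Fos, Dusp1 and Nr4a1; TATAAA in Fos; TGACATCA in Jun; and TGACGTCA, which contains TGACG, in Dusp1. Both Nr4a1 and Dusp1 also have an annotated transcript that starts upstream of the window shown; that of Dusp1 was at 0 TPM on average in each group. Dusp1 is shown for 203 bases only, since the rest of the window lies in an annotated exon. Of the 8 promoters, 5 held TGACG (Fos, Fosb, Junb, Nr4a1 and Dusp1), against 17.8% of 32851 windows of the same length. TGACGTCA occurred in Dusp1 alone, against 1.55% of windows, and TGACATCA in Jun alone, against 2.93%. TATAAA was found in Fos, against 12.4%. Zfp36 held a CArG box, the letters bound by serum response factor, at 58 to 49 bases before its start, against 1.47% of windows. GCGGGGGCG, an EGR motif, was present in Fosb, Zfp36 and Nr4a1, against 2.57%, and is not capitalised. TGACTCA, an AP-1 motif, was in 4.46% of windows and in no member. A match describes letters, not binding.

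The 18 libraries held 15956408 to 29226287 estimated reads each. Ptbp1 was lower in every KO group, at 98.1 ± 8.84 against 208 ± 12.5 CPM (counts scaled to library size; mean ± SD, n = 3) in HSC, 203 ± 25.4 against 693 ± 95.8 in preMegE and 306 ± 10.5 against 1244 ± 117 in preCFU-E. Hlf, a transcription factor that marks HSC, was at 614 CPM in WT HSC, 27.7 in WT preMegE and 7.19 in WT preCFU-E, where Procr, another HSC marker, was at 0. Kit, on the same marker list, went the other way between the first 2 populations, from 476 to 815 CPM (edgeR adjusted p = 6.73e-06). The megakaryocyte and erythroid list summed to 362 to 423 CPM in WT HSC and 5621 to 7042 in WT preCFU-E, where Car1 alone averaged 5045. From WT preMegE to WT preCFU-E, 4 of its 10 genes passed as higher and 4 as lower, against 15.6% and 11.2% of all genes. Gata2 was at 506 CPM in WT preMegE and 121 in WT preCFU-E. Granulocyte and monocyte markers summed to 105 to 130 CPM in WT HSC, 128 to 159 in WT preMegE and 3.71 to 19.1 in WT preCFU-E, and to 100 to 114, 127 to 152 and 4.87 to 20.03 in KO. T and NK cell markers summed to 204.3 to 276 CPM in WT preMegE, against 16.1 to 31.2 in WT HSC; this sum was mostly Nkg7, while Cd3d fell from 9.88 to 0.866 CPM and Cd8a was at 0.553 and 0.158. Endothelial and stromal markers summed to 13.4 to 43.6 CPM in WT HSC and 14.8 to 17.8 in KO HSC, where Cdh5 was at 0, and 1 of the 5 tested passed between these groups: Cxcl12, at 4.73 ± 4.02 CPM in WT and 0.285 ± 0.305 in KO (log2 -3.98, SE 0.86, adjusted p = 0.0323). Its part in the HSC results below was not tested. Xist was at 6434 CPM or more in every HSC library and at 1.12 or less elsewhere, and Eif2s3y showed the opposite, so population and sex cannot be told apart in any comparison with HSC. Mitochondrial ribosomal RNA took 12.7% to 33.5% of a library. In bulk samples, fewer cells of a type and less RNA per cell cannot be told apart, and the p-values below measure the spread between these libraries.

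All 10 genes together took 0.00205% to 0.0117% of a library's reads. CPM are compared between samples, and TPM, which are scaled to transcript length, between genes. In WT HSC, Dusp1 (16.7 TPM ± 2.80, SD, n = 3), Zfp36 (13.2 ± 1.61) and Egr1 (10.5 ± 3.32) led, above Junb (4.15 ± 2.58), Jund (3.27 ± 0.851), Ier2 (2.78 ± 0.559) and Jun (2.07 ± 0.763). Neighbours in this order differed by less than the larger of their SDs, apart from Dusp1 and Zfp36 and from Egr1 and Junb. In WT preMegE, Dusp1 led at 11.3 TPM, with Egr1 at 8.02, Ier2 at 6.89 and Jun at 6.23, while Zfp36 stood at 2.76. In WT preCFU-E, Ier2 (3.85 ± 0.639) and Egr1 (3.57 ± 0.223) led within their SDs, and Dusp1 had only 1.46 TPM. Fos, Fosb and Nr4a1 were below 1 TPM in WT in all 3 populations. In a WT library Fos was read 1 to 40 times, Fosb 0 to 44 times and Nr4a1 0 to 57 times.

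No member passed the test between KO and WT in any population. edgeR's quasi-likelihood test with Benjamini-Hochberg adjustment over 21565 genes called 0 of 10 in each, with HSC, preMegE and preCFU-E in this order, against 0.844%, 0.0603% and 0.153% of all genes. At an unadjusted p under 0.05 there were 2, 0 and 1 members. The share of all genes at that threshold was not counted, so these counts have no background to be read against. DESeq2 called 0, 0 and 1 members, the last being Egr1, against 647, 59 and 77 of 21565 genes. The median log2 difference of the members, KO minus WT, was 0.20, -0.33 and 0.45 for the same 3 populations, against 0.014, 0.012 and -0.00438 over all genes. In preCFU-E, 9 of the 10 differences were above 0, among them that of Nr4a1, which rests on 2 reads; over the alternatives, some of which tested fewer members, it was 6 to 10.

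**Figure D1:**
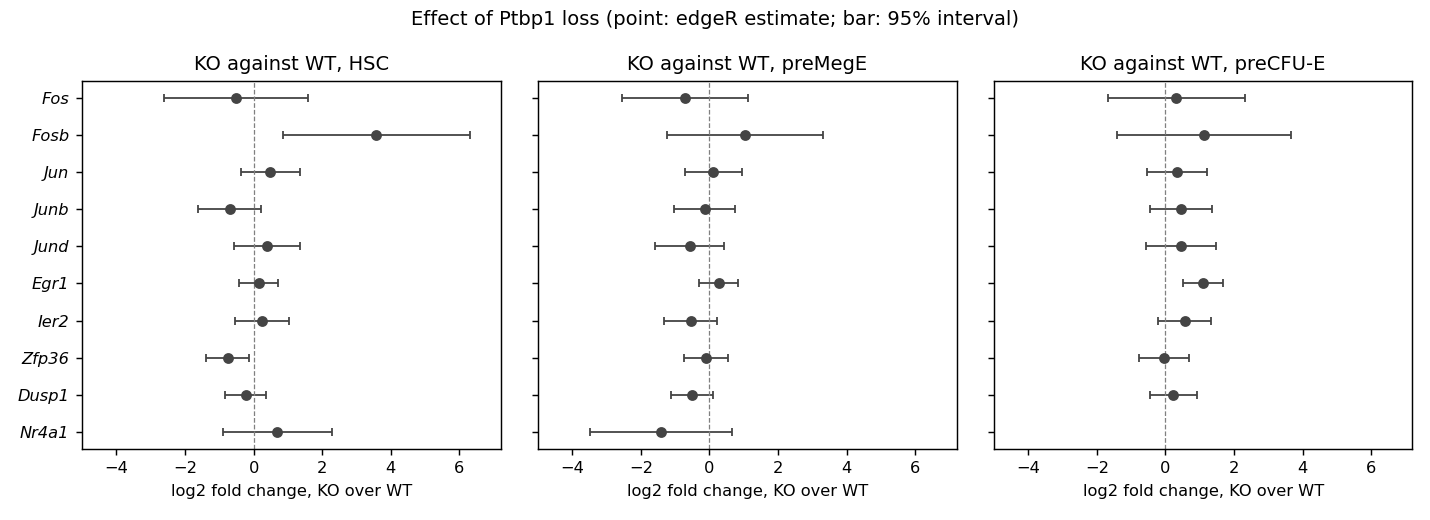
Fitted log2 fold change of KO over WT (x axis) for each member (y axis) in HSC, preMegE and preCFU-E, with the 95% interval as a bar; Nr4a1 is left out in preCFU-E, where it had 0 and 2 reads. Most intervals cross 0, those of Fosb and Zfp36 in HSC and of Egr1 in preCFU-E do not, and 0 members passed the adjusted threshold.

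Among the AP-1 subunits, which pair as dimers to bind DNA, Fos and Fosb were read too few times for a stable fold. Fos (ENSMUSG00000021250; chromosome 12, 85473890 to 85477273), the founding subunit, reached 0.152, 0.426 and 0.0504 CPM in the 3 WT HSC libraries and 0.247, 0 and 0.177 in KO HSC, from 1 to 9 and 0 to 7 reads. The groups overlapped. In preMegE Fos was at 1.62, 1.47 and 0.895 CPM in WT and 1.26, 1.05 and 0.132 in KO, the last from 3 reads. In preCFU-E it was at 0.274, 0.156 and 0.498 in WT and 0.142, 0.720 and 0.267 in KO. Each of these pairs of groups overlapped, and the KO minus WT log2 differences were -0.52 (SE 1.01), -0.72 (SE 0.88) and 0.32 (SE 0.97). Fosb (ENSMUSG00000003545; chromosome 7, 19302696 to 19310051), its close relative, was at 0.152, 0.142 and 0 CPM in WT HSC and 2.19, 1.49 and 0.133 in KO HSC, so that 2 of the 3 KO libraries stood above all WT libraries and the third did not. Its log2 difference was 3.58 (SE 1.31, adjusted p = 0.217). In preMegE the KO library 1 reached 5.42 CPM while its 2 partners held 0.850 and 0.0439, and the WT libraries held 1.78, 1.18 and 0.0942. In preCFU-E Fosb was at 0.196, 0.312 and 0.427 CPM in WT and 0.213, 1.14 and 0.641 in KO, again overlapping.

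Jun (ENSMUSG00000052684; chromosome 4, 95049034 to 95052222), the subunit that forms homodimers as well as Fos pairs, was at 2.63, 4.63 and 5.94 CPM in WT HSC and at 6.75, 9.69 and 2.03 in KO HSC. The KO libraries lay on both sides of the WT range. In preMegE the values were 21.7, 12.6 and 12.1 in WT and 16.5, 20.2 and 13.4 in KO, and in preCFU-E 3.52, 3.59 and 3.27 against 4.19, 5.40 and 3.47. Jun therefore overlapped between genotypes in all 3 populations, with log2 differences of 0.49 (SE 0.41), 0.11 (SE 0.40) and 0.33 (SE 0.42). Junb (ENSMUSG00000052837; chromosome 8, 84974484 to 84978718), which often opposes Jun in proliferating cells, shares 173 exonic bases with Prdx2 on the other strand, and the sources used here do not say whether counting used strand. Its values were 2.93, 3.36 and 1.91 CPM in WT HSC and 1.52, 2.76 and 0.796 in KO HSC, overlapping, with a log2 difference of -0.69 (SE 0.44). In preMegE, Junb was at 2.79, 3.27 and 4.95 in WT against 2.52, 2.94 and 4.48 in KO. In preCFU-E it was at 2.31, 3.43 and 1.85 against 4.11, 2.88 and 3.42. Jund (ENSMUSG00000071076; chromosome 8, 70698949 to 70700616), the subunit that is the least inducible of the Jun genes, ranged from 0.523 to 3.00 CPM over all libraries and overlapped between genotypes in each population, with log2 differences of 0.39 (SE 0.46), -0.58 (SE 0.48) and 0.45 (SE 0.49). Gm11175 shares 877 of its exonic bases on the other strand. Other-strand genes also share 232 exonic bases with Jun (Junos, 1.11 CPM in WT HSC and 0.144 in WT preMegE), 125 with Zfp36 (Gm44710, 0.0426 CPM or less in each group on average) and 11 with Dusp1 (Ergic1), and reads from such bases cannot be told apart without strand.

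Egr1 (ENSMUSG00000038418; chromosome 18, 34859823 to 34864984), a zinc-finger factor induced by growth signals, was the best measured member, with 186 to 867 reads in a library. In WT preCFU-E it was at 11.4, 11.3 and 13.2 CPM and in KO preCFU-E at 25.5, 36.3 and 15.4. All 3 KO libraries were above all 3 WT libraries, by 2.15-fold on the fitted scale (log2 difference 1.10, SE 0.28, 95% interval 0.53 to 1.68), with an adjusted p of 0.234. Groups that did not overlap, KO higher, were seen for 6.62% of all genes in preCFU-E. The adjusted p was 0.0264 with DESeq2 and 0.0253 with no filter on low counts, and 0.851 with limma voom. Without KO library 2 the difference was 0.78 and the adjusted p 1. Over all alternatives the adjusted p ran from 0.0253 to 1. The 3 KO libraries took 28.8%, 27.0% and 12.7% of their reads from mitochondrial ribosomal RNA, and the WT libraries 17.3%, 14.3% and 19.4%. With all mitochondrially encoded genes left out, the Egr1 difference was 1.11 (adjusted p = 0.223). That fit changes only how libraries are scaled, and whether the unequal shares bear on Egr1 was not tested. In HSC, Egr1 was at 20.97, 33.3 and 17.3 CPM in WT and 30.6, 25.4 and 23.0 in KO, and in preMegE at 22.7, 17.9 and 27.7 against 27.5, 31.8 and 22.9. These 4 groups overlapped within each population, with log2 differences of 0.14 (SE 0.27) and 0.27 (SE 0.27).

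Nr4a1 (ENSMUSG00000023034; chromosome 15, 101254269 to 101274795), an orphan nuclear receptor, was at 0.723, 2.70 and 0.957 CPM in WT HSC and 1.06, 3.42 and 2.61 in KO HSC. The groups overlapped, and the log2 difference was 0.69 (SE 0.77). In preMegE it was read 6, 7 and 4 times in WT and 0, 0 and 5 times in KO. In preCFU-E it was read 0 times in all WT libraries and 0, 1 and 1 times in KO, so no fold is given. Ier2 (ENSMUSG00000053560; chromosome 8, 84661331 to 84662852), a nuclear protein with few known functions, was at 2.21, 3.12 and 1.96 CPM in WT HSC and 1.59, 4.47 and 2.65 in KO HSC. In preMegE its KO libraries (2.96, 3.86 and 5.66) all lay below the WT libraries (6.67, 5.81 and 5.89), and in preCFU-E the KO libraries (4.54, 5.76 and 6.78) were all above the WT libraries (4.54, 3.95 and 3.06), the lowest KO value and the highest WT value differing only in the third decimal. The log2 differences were -0.55 (SE 0.37) and 0.56 (SE 0.37). Lower, non-overlapping KO groups were seen for 6.24% of all genes in preMegE.

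Zfp36 (ENSMUSG00000044786; chromosome 7, 28376784 to 28380253), or tristetraprolin, binds AU-rich elements and hastens decay of the mRNAs of cytokines and of immediate early genes themselves. In WT HSC it was at 23.1, 20.3 and 27.4 CPM and in KO HSC at 17.4, 16.0 and 8.76. All KO libraries lay below all WT libraries, as for 6.31% of all genes in HSC. The log2 difference was -0.75 (SE 0.30, 95% interval -1.37 to -0.12, adjusted p = 0.267), and it was -0.50 without KO library 3. Zfp36 did not separate by genotype in preMegE (6.83, 6.84 and 5.56 CPM in WT, 6.95, 4.05 and 6.89 in KO) or in preCFU-E (1.88, 1.77 and 0.995 in WT, 1.21, 1.98 and 1.39 in KO). Dusp1 (ENSMUSG00000024190; chromosome 17, 26505590 to 26562128), the phosphatase that inactivates p38, JNK and ERK, was at 16.9, 14.9 and 19.6 CPM in WT HSC and 18.1, 14.0 and 11.6 in KO HSC, overlapping. In preMegE its KO libraries (7.83, 9.81 and 7.72) were all below the WT libraries (13.7, 11.1 and 11.3), with a log2 difference of -0.51 (SE 0.29, adjusted p = 1). In preCFU-E it was at 1.56, 1.77 and 3.55 in WT and 1.84, 2.58 and 3.47 in KO.

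Whether the genotype difference itself varied between populations was tested as a difference of differences. Of the 10 members 0 passed the adjusted threshold between any 2 populations, against 0.0325% of all genes for preMegE against HSC, 0% for preCFU-E against preMegE and 0.051% for preCFU-E against HSC. At an unadjusted p under 0.05 there were 0, 2 and 1 members, again with the share of all genes not counted. For preCFU-E against preMegE all 10 members had a difference above 0, with a median of 0.79, against -0.00386 over all genes. Among them were Nr4a1, read 7 times or less in each library of these populations, and Fosb at 0.09 (SE 1.46). The 2 with an unadjusted p under 0.05 were Ier2 at 1.11 (SE 0.53) and Egr1 at 0.84 (SE 0.39), neither of which passed (adjusted p = 0.999962). The sign turned under 6 alternatives for Fosb, 4 for Zfp36 and 1 for Jun. These comparisons share libraries with one another.

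Between populations, several members passed the test. In WT, 6 of the 10 passed the test between preMegE and HSC, with 4 higher and 2 lower, where 25.5% of all genes were higher and 28.2% lower. Jun rose from 4.401 ± 1.67 to 15.5 ± 5.36 CPM (log2 1.82, SE 0.41, adjusted p = 0.00113). Ier2 rose by 1.33 (SE 0.38, adjusted p = 0.00612) and Fos by 2.63 (SE 0.96, adjusted p = 0.0258). Fosb rose by 3.26 (SE 1.31, adjusted p = 0.0419), with overlapping libraries. Zfp36 fell 3.68-fold, from 23.6 ± 3.59 to 6.41 ± 0.735 CPM (log2 -1.88, SE 0.31, adjusted p = 4.47e-05), and Nr4a1 fell by 2.63 on the log2 scale (SE 0.85, adjusted p = 0.0148). Junb, Jund, Egr1 and Dusp1 did not pass. The Fos call was lost with upper-quartile factors (adjusted p = 0.0535) and without HSC WT library 1 or 3 or preMegE WT library 1 or 2, the Fosb call was lost under 9 settings, and the Nr4a1 call was lost without HSC WT library 2 (adjusted p = 0.0994) or preMegE WT library 3 (0.0608).

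From preMegE to preCFU-E in WT, 5 members fell and 0 rose, where 11.2% of all genes were lower and 15.6% higher. Dusp1 fell from 12.02 ± 1.42 to 2.30 ± 1.09 CPM (log2 -2.41, SE 0.32, adjusted p = 6.44e-06). Jun fell by 2.16 on the log2 scale (SE 0.42, adjusted p = 0.000494), to 3.46 ± 0.168 CPM, close to its WT HSC level. Zfp36 fell by 2.02 (SE 0.33, adjusted p = 7.91e-05), after its fall from HSC to preMegE. Egr1 fell from 22.8 ± 4.92 to 11.98 ± 1.08 CPM (log2 -0.93, SE 0.28, adjusted p = 0.0152), a call lost without preMegE WT library 3 (0.0784) or preCFU-E WT library 2 (0.0511). Nr4a1 was called (adjusted p = 0.0139) at 0 reads in all 3 WT preCFU-E libraries. A bound was set at 3 reads over the group, or 0.0510 CPM. That bound was 4.56-fold below the pooled level of WT preMegE and 27.7-fold below that of WT HSC. The spread between libraries is not part of the bound. Fos, Fosb, Junb, Jund and Ier2 were lower without passing, with differences of -2.11, -1.73, -0.53, -0.68 and -0.66. Groups did not overlap for 8 of the 10 members, lower in preCFU-E, as for 24.7% of all genes. The members' median was -1.88, with Nr4a1 at its bound as well, against -0.18 over all genes.

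In KO cells, preMegE against HSC gave 2 higher members (Jun by 1.44, SE 0.41, adjusted p = 0.00607, and Fos by 2.43, SE 0.98, adjusted p = 0.0424) and 4 lower (Zfp36, Nr4a1, Jund and Dusp1), against 25.4% and 27.3% of all genes. Zfp36 fell by 1.23 (SE 0.31, adjusted p = 0.00241). Nr4a1 fell by 4.74 (SE 0.98, adjusted p = 0.000564), with 0, 0 and 5 reads in the KO preMegE libraries. Over the settings its log2 difference ran from -8.62 to -4.20. Nr4a1 was read more than 7 times in HSC libraries only, so it passed the filter on low counts through HSC. Jund fell by 1.47 (SE 0.48, adjusted p = 0.0149) and Dusp1 fell by 0.79 (SE 0.29, adjusted p = 0.0295), but the call was lost under 6 settings for Dusp1, 4 for Jund and 11 for Fos, most of which left out 1 library. From KO preMegE to KO preCFU-E 3 members fell and 0 rose (17.6% of all genes lower and 18.4% higher): Jun fell by 1.94 (SE 0.42, adjusted p = 0.00103), Zfp36 fell by 1.96 (SE 0.34, adjusted p = 0.000103) and Dusp1 fell by 1.67 (SE 0.31, adjusted p = 0.000260). Egr1 differed by -0.09 there. Jun and Zfp36 passed in all 4 of these steps under every setting tried.

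**Figure D2:**
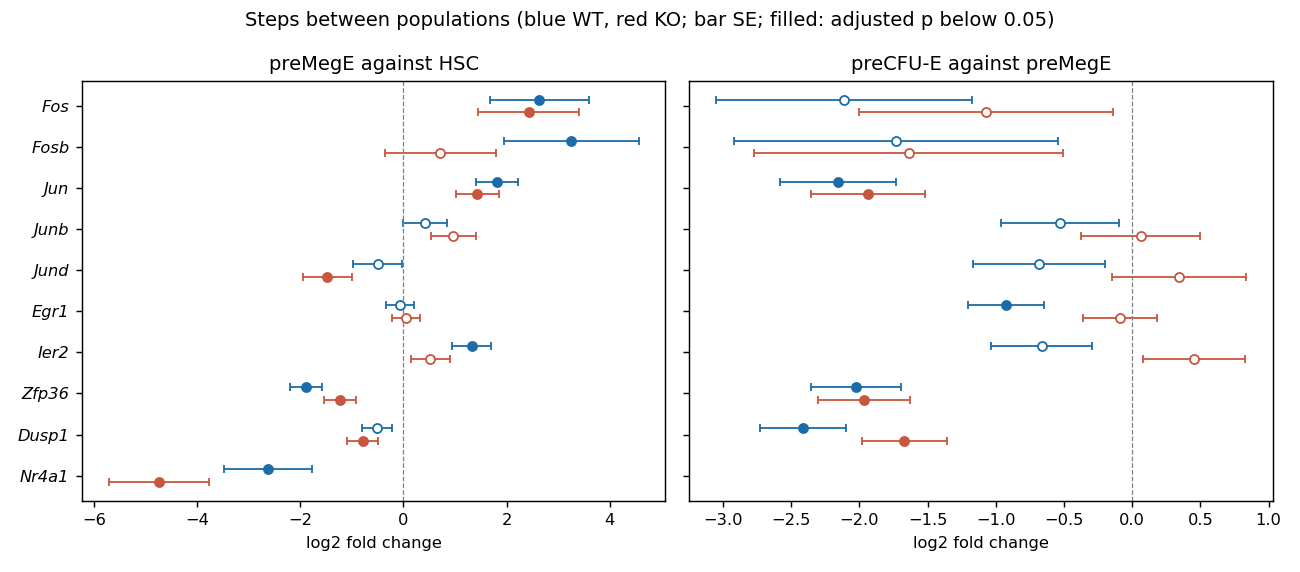
Fitted log2 fold change (x axis) of each member (y axis) from HSC to preMegE and from preMegE to preCFU-E, WT in blue and KO in red, with the SE as a bar and filled points for an adjusted p below 0.05; Nr4a1 is left out of the step to preCFU-E. Jun goes up and then down, and Zfp36 goes down in both steps, in both genotypes.

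Averaged over the 6 groups, the members varied about as much as other genes, which were not matched to them for abundance. Their SD of log2 CPM, averaged over the 6 groups, had a median of 0.436, against 0.421 over all genes tested. Single groups differed from this average. In KO preCFU-E the SD of every member was above the median of all genes, 0.237. In KO HSC all members but Jund, Egr1 and Dusp1 were above the median of all genes, 0.507. In each of the other groups members also lay on both sides of that median. The biological coefficient of variation fitted by edgeR was highest for Fosb at 0.923, Fos at 0.677 and Nr4a1 at 0.600, which were also read least, and lowest for Egr1 at 0.239, Dusp1 at 0.245 and Zfp36 at 0.261, against a median of 0.360. From library to library, over the 45 pairs of members, the median correlation of deviations from the group mean was 0.02 (18 libraries, range -0.55 to 0.83) and 24 pairs were above 0. Ier2 and Nr4a1 gave the 0.83, Jund and Zfp36 0.70, and Fos and Fosb 0.61. Jun (0.53) and Fosb (0.52) followed the mean of the other 9 most closely, and Nr4a1 (-0.13), Ier2 (-0.02) and Junb (-0.02) the least. These correlations share depth and library factors and are descriptions.

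**Figure D3:**
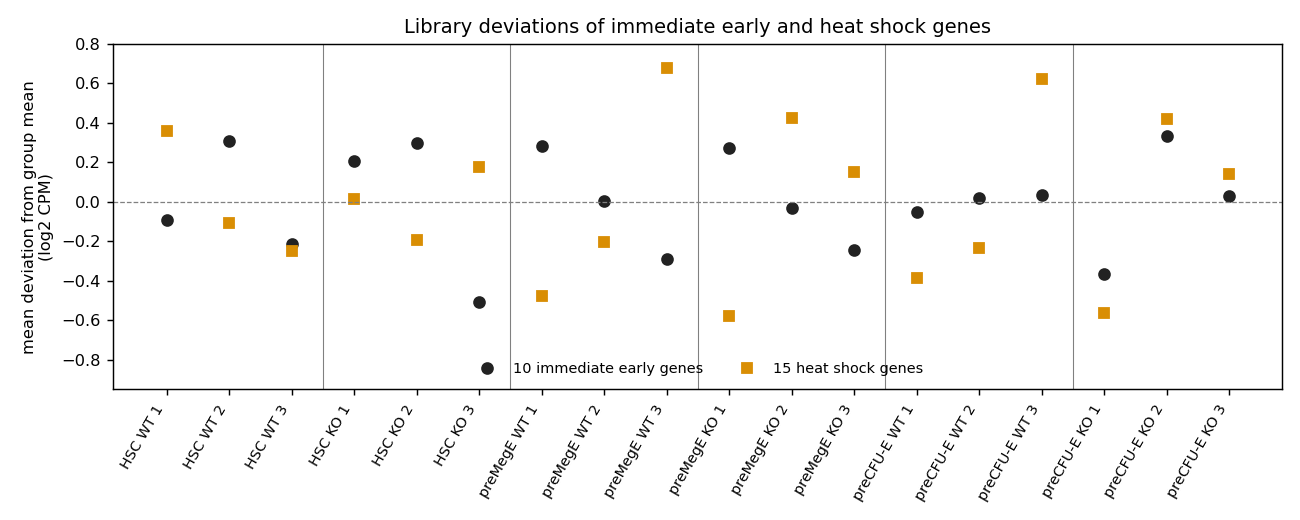
Mean deviation of the 10 members (circles) and of 15 heat shock genes (squares) from their group mean (y axis, log2 CPM) in each of the 18 libraries (x axis). KO HSC library 3 holds the lowest member value, at -0.51, and KO preCFU-E library 2 the highest, at 0.34.

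The mean deviation of the 10 members does not scale genes to their spread, so the widely varying, little-read genes weigh most in it. The SD of log2 CPM, averaged over groups, was 1.41 for Fosb and 0.881 for Fos, against 0.331 for Egr1. The mean deviation was largest in KO HSC library 3, at -0.51, KO preCFU-E library 1, at -0.37, and KO preCFU-E library 2, at 0.34. The heat shock genes of the same libraries deviated by 0.18, -0.56 and 0.42, and the other early response genes by 0.14, 0.09 and -0.14, each opposite in sign to the members. In WT preMegE library 3 the members stood at -0.29 and the heat shock genes at 0.68. Among 8353 genes outside the list whose log2 CPM averaged 3 or more, Il18rap (r = 0.826), Impact (0.790), Stxbp4 (0.787), Zbtb37 (0.782) and Gm3448 (0.767) followed the members' mean deviation most closely over the 18 libraries. They were picked as the highest of 8353 correlations, so high values come in part from the selection, and no test was made.

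Transcript forms could be tested for Egr1, Zfp36, Dusp1 and Nr4a1, and 0 of 4 passed between KO and WT in each population (diffSpliceDGE with Simes adjustment), where 4.36%, 0.139% and 0.235% of 9364 genes passed in the 3 populations. For Dusp1 its 2 retained-intron forms together took 54.7%, 33.4% and 25.9% of its TPM in WT HSC and 73.8%, 100% and 20.3% in KO HSC. KO HSC library 2 therefore held no TPM in the protein-coding form, while KO library 3 was below all WT libraries. In preMegE the shares were 84.9%, 69.0% and 63.4% in WT and 65.2%, 74.0% and 17.5% in KO, overlapping. The Fosb reads were spread over several forms. Fosb-207 took 58 reads in KO HSC library 1 and Fosb-205 took 72 in KO preMegE library 1. The retained-intron Fosb-204 took 34 reads in KO HSC library 2, 27 and 13 in KO preMegE libraries 1 and 2, and 42 and 22 in WT preMegE libraries 1 and 2.

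The members were set beside related lists. Between KO and WT, 0.844%, 0.0603% and 0.153% of all genes passed in HSC, preMegE and preCFU-E. At such shares, 0 calls in a short list say little about its genes. Of 44 other early response genes 35 were tested, and between KO and WT only Klf10, a zinc-finger repressor, passed. It fell in HSC from 53.1 ± 11.8 to 26.6 ± 4.72 CPM (log2 -0.998, SE 0.21, edgeR adjusted p = 0.0305). In WT, 5 of the 35 rose and 7 fell from HSC to preMegE, where 25.5% of all genes rose and 28.2% fell. From preMegE to preCFU-E 1 rose and 13 fell, where 15.6% of all genes rose and 11.2% fell. Myc went from 125 to 374 and 681 CPM through the 3 WT populations and Pim1 from 101 to 17.1 and 6.57. Heat shock genes did not pass between KO and WT (0 of 15), but 12 rose and 0 fell from WT HSC to WT preMegE and 8 rose and 1 fell from there to preCFU-E, where 5 members fell. Hspa8, the constitutive member of the HSP70 family, went from 717 to 3532 and 8267 CPM. Upstream kinases and factors (24 tested), mRNA decay factors (15) and AP-1 partners (11) had 0 calls between KO and WT. Between WT HSC and WT preMegE they gave 12, 7 and 5 higher and 1, 1 and 2 lower, to be read against the same shares of all genes. Nfe2l2, an AP-1-related stress factor, was at 80.8, 197 and 398 CPM in the 3 WT populations.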

How the data were processed

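The deposited files hold, per transcript and library, estimated counts and TPM that the authors made with Salmon 0.12.0 against mm10 (GRCm38.p6), per the submitters' processing notes. The deposited TPM were used for levels between genes, and the estimated counts were summed per gene and rounded for the tests; a median of 82.9% of estimates were not whole. Of 136288 transcripts, 136176 matched GENCODE M21, and 99.2% of them had the same length. Libraries of a group differed by more than sampling noise (chi-square per degree of freedom 13.6 to 159).

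Counts were analysed in R 4.3.3 with edgeR 4.0.16: TMM factors, filterByExpr, 6 group means, robust quasi-likelihood test, 12 residual degrees of freedom, 21565 genes tested, adjusted p threshold 0.05. The SE is the log2 difference divided by the square root of its F. limma 3.58.1 and DESeq2 1.42.0 gave alternatives. The members and lists were chosen with earlier results of these data known. All 10 members are named; genes of the other lists were named where called between KO and WT, or drawn from the 3 most abundant of a list. The 5 genes most like the members have the highest Pearson r with their mean deviation. Same-numbered libraries gave correlations of deviations of -0.038 to 0.143 over 9 pairs, with 0.143, 0.0125 and 0.0857 in preMegE. In preMegE libraries 1, 2 and 3 the members' mean deviation was 0.281, 0.006 and -0.287 in WT and 0.274, -0.028 and -0.245 in KO. Whether same-numbered libraries share a preparation was not tested. The summed level of the HSC marker list is not reported here.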

Additional observations from a re-analysis of the deposited data

How the results depend on the processing

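With no filter on low counts and with DESeq2, the number of members called between KO and WT in preCFU-E was 1 (Egr1) in place of 0, and no result changed direction past a threshold. The other counts of members called between KO and WT, in the differences of those effects and in transcript usage stayed at 0 in every setting, leaving out each library in turn included. From HSC to preMegE, 4 to 6 members were called in WT and 4 to 7 in KO when 1 library was left out, from WT preMegE to WT preCFU-E 4 to 5 and from KO preMegE to KO preCFU-E 3. With the replicate block, 0 members were called between KO and WT and 0 in the differences; no such fit was run between populations, where the number is nested in the population. Over all genes, 182 were called in HSC against 647 with DESeq2, 307 with limma voom, 360 with no filter, 94 with the replicate block and 5 fitted on HSC alone. In preMegE 13 were called against 59 with DESeq2, 27 with no filter, 36 fitted alone and 7 with length-scaled counts, and in preCFU-E 33 against 77, 54, 252 and 15. Upper-quartile factors moved the median of all genes from -0.43 to -0.83 between WT HSC and WT preMegE and from -0.18 to -0.41 between WT preMegE and WT preCFU-E. With those factors Dusp1 also passed as lower in WT preMegE than in WT HSC (adjusted p = 0.0109), as it did among genes with a mean CPM of at least 1 (0.0422). Fos, Fosb and Nr4a1 rest on few reads, which limits what could be detected.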
